A study of Homo sapiens with 12 samples.

Results

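Described here are 10 hypoxia-response genes chosen by name, namely HIF1A, VEGFA, ADM, BNIP3, BNIP3L, NDRG1, EGLN1, EGLN3, P4HA1 and ANKRD37. Of these, 8 had a row among the 11548 genes of the deposited table, with a value in every one of the 12 libraries. EGLN3 and ANKRD37 were not analysed here. The libraries came from Hep3B, Huh7 and MHCC97H, established human hepatocellular carcinoma lines that were wild type by their labels and grown in DMEM with 10% FCS. Each line gave 1 untreated library, 1 with AZD8055 (100 nM), an inhibitor of the mTOR kinase, 1 with compound #57, an allosteric inhibitor of the phosphatase SHP2, and 1 with the combination of AZD8055 (100 nM) and compound #57 (5 µM). The dose of compound #57 on its own is not given in the sources used here. Exposure lasted 48 h in Hep3B and Huh7 and 24 h in MHCC97H, so time and MHCC97H cannot be told apart.

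The cellular response to low oxygen runs through the hypoxia-inducible factors (HIF). When oxygen is present, prolyl hydroxylases such as EGLN1 and EGLN3 mark the alpha subunit encoded by HIF1A for destruction. When oxygen falls, the subunit is stabilised, pairs with ARNT and switches on genes for blood vessel growth, glycolysis, mitochondrial turnover and collagen processing. HIF1A is therefore controlled largely as a protein, and its mRNA is not a direct measure of HIF activity. Hepatocellular carcinoma is a vascular tumour in which VEGFA is a drug target, and mTOR signalling is known to favour production of the HIF alpha subunit. None of these libraries came from cells labelled as hypoxic.

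HIF binds DNA at the core ACGTG or GCGTG. RefSeq promoters (GRCh38.p14, 250 bases before to 50 after the start) were matched for 7 of the 10 genes. VEGFA, BNIP3L and NDRG1 had no entry. On either strand, ACGTG occurred in 21.4% and GCGTG in 36.5% of 35116 promoters of this length, and 48.4% held at least 1 of the pair. Stretches from the 4 measured HIF targets that held the core are printed, so that their responses can be read beside the letters. The ADM stretch is chr11:10304944-10305004 (+) and has GCGTG 101 bases before the start. The BNIP3 stretch is chr10:131981995-131982094 (-) and holds 6 matches, of which the 2 ACGTG matches are both strands of 1 CACGTG, a motif present in 7.26% of promoters and also bound by other factors. The EGLN1 stretch is chr1:231422288-231422328 (-), with ACGTG 13 bases before the start. The P4HA1 stretch is chr10:73096936-73096964 (-) and holds ACGTG on the opposite strand, written CACGT, 86 bases before the RefSeq start. The RefSeq start lies downstream of the outermost GENCODE start, so this stretch is inside the longest GENCODE span of P4HA1. All are written 5′ to 3′ on the strand of the gene, and capitals mark the core on either strand.
ADM: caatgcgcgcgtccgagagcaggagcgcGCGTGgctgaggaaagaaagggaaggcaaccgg
BNIP3: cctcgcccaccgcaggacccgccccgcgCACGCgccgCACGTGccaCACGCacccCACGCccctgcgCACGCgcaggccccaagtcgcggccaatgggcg
EGLN1: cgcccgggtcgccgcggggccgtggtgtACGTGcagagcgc
P4HA1: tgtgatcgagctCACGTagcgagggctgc
HIF1A, itself the transcription factor, had 1 GCGTG in its upstream entry and none in its other entry. Among the genes without values, ANKRD37 had 3 matches and EGLN3 had 0. A match is a run of letters and was not tested as a binding site.

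The libraries held 10667343 to 15968317 reads, and the genes in the table took 98.6% to 99.2% of them. Values are log2 levels, that is log2(reads per 10000000 + 1). With 1 library per line and treatment, a log2-fold change within a line is a difference between a pair of libraries. It carries a 95% Clopper-Pearson interval that covers counting error only, and no test. Across lines, limma was fitted to all genes with cell line as a term, and a gene was called at a Benjamini-Hochberg adjusted p under 0.05. The lines are the replicates where that test compares treatments, and a level in a bulk library cannot separate fewer expressing cells from less RNA per cell. All 10 hepatocyte markers listed had a row. Their level in MHCC97H was uneven. TTR (0 to 3 reads per library), APOA1 (4 to 10) and SERPINA1 (13 to 22) were near 0 there, AFP had 59 to 89 reads, and ALB had 203 to 834 against 146259 to 628730 in Hep3B and 28743 to 103682 in Huh7. APOB had 206 to 501 reads in MHCC97H, against 27286 to 87663 in Hep3B and 17670 to 96986 in Huh7. FGB had 157 to 1515, against 2021 to 37472 in Hep3B and 22498 to 53398 in Huh7. HNF4A had 775 to 2041, against 2216 to 4978 in Hep3B and 3988 to 5858 in Huh7. KRT18 and KRT8 had at least 15721 and 43735 reads in MHCC97H, and at least 12058 and 18714 in Hep3B and 14387 and 34281 in Huh7. Of 10 markers of other cell types, only COL1A1, COL1A2 and PECAM1 had a row. Their summed log2 level was 5.61 to 7.59 in Hep3B, 8.21 to 9.12 in MHCC97H and 10.1 to 10.7 in Huh7. The sum mixes opposite orders. PECAM1 had 7 to 27 reads in Hep3B, 371 to 617 in MHCC97H and 5 to 89 in Huh7. In the same order COL1A1 had 30 to 247, 13 to 29 and 147 to 1069 reads, and COL1A2 9 to 26, 0 to 2 and 732 to 1528. The part of these differences in the results was not tested.

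Per kilobase of the canonical GENCODE transcript, HIF1A was the most abundant of the 8 genes, with a median of 632 reads per 10000000 per kb over the libraries. NDRG1 followed with 322, EGLN1 with 303, BNIP3 with 260, VEGFA with 210, P4HA1 with 162, BNIP3L with 155 and ADM with 135. The order was not constant. NDRG1 was the second lowest of the 8 in untreated Hep3B cells, at 36.6 reads per 10000000 per kb, and the second highest in Huh7 cells with compound #57, at 626. On the log2 scale, the distance between the lowest and the highest library was 4.09 for NDRG1 and 3.76 for ADM, 2.64 for BNIP3L and 2.32 for P4HA1, and 1.85 for VEGFA and 1.84 for HIF1A. BNIP3 with 1.26 and EGLN1 with 0.94 varied least.

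**Figure D1:**
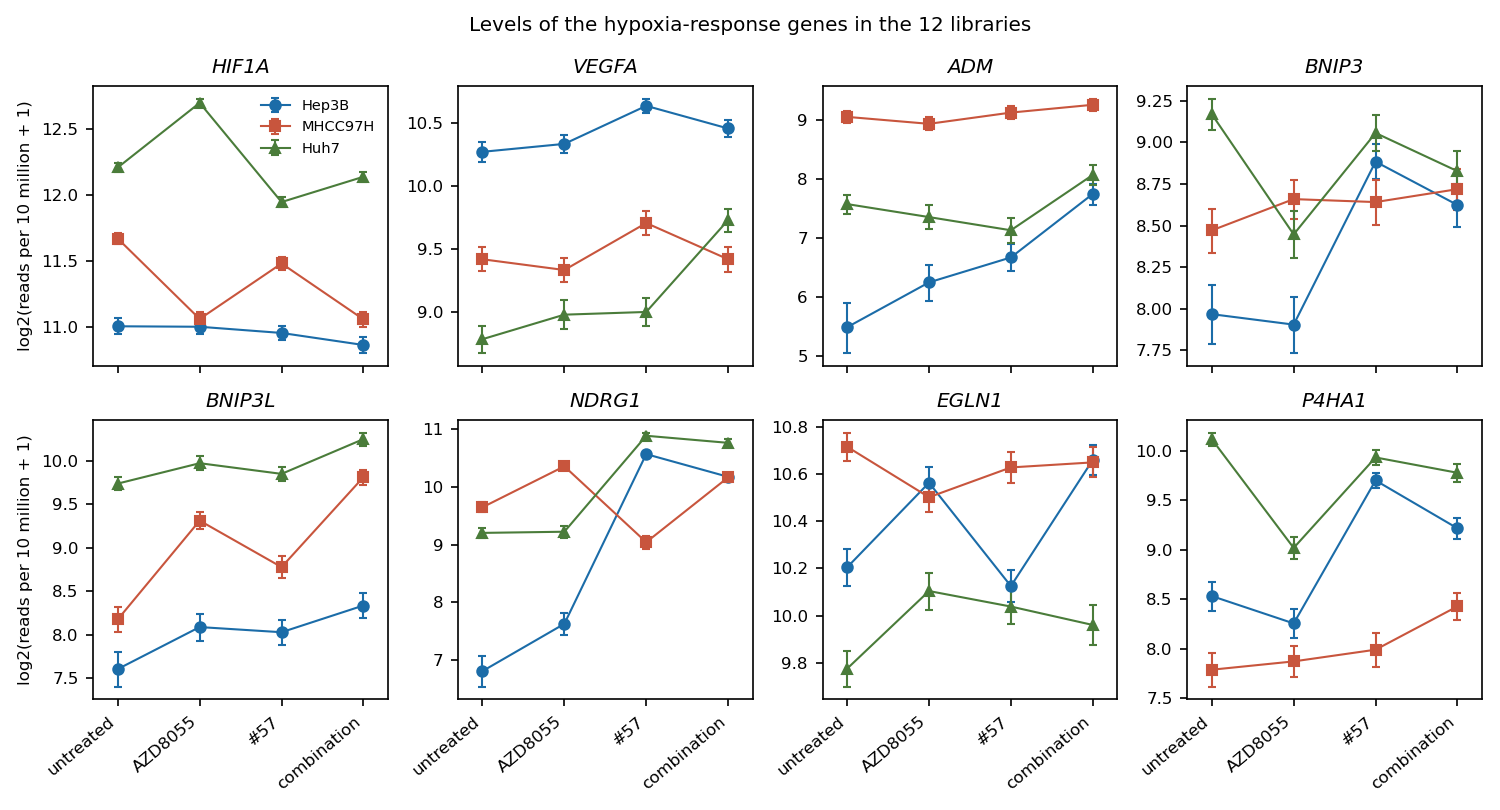
Log2 level, log2(reads per 10000000 + 1), of the 8 genes (1 panel each, own axis) in the 12 libraries, by treatment, with colours and symbols for the cell lines, lines joining libraries of 1 cell line, and bars for the 95% counting interval. NDRG1 in Hep3B stood at 6.80 untreated and 10.57 with compound #57, while the MHCC97H library with compound #57 was the lowest of its line.

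VEGFA encodes the main secreted growth factor for blood vessels, on 6:43770184-43786487 (+) of hg38. The Hep3B libraries had VEGFA log2 levels of 10.27 untreated, 10.34 with AZD8055, 10.64 with compound #57 and 10.46 with the combination. In MHCC97H the VEGFA levels were 9.42, 9.33, 9.71 and 9.42 in the same order. In Huh7 they were 8.783, 8.978, 8.9997 and 9.730. All 4 Hep3B libraries lay above the other 8, and the Huh7 library with the combination lay above the rest of Huh7 and level with the highest MHCC97H library. Ordered from high to low, 6 of the 11 neighbouring pairs of VEGFA levels differed beyond their counting interval.

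NDRG1 encodes a stress-responsive protein of the cytoplasm and lies on 8:133237175-133302022 (-). The Hep3B libraries gave NDRG1 log2 levels of 6.80 untreated, 7.62 with AZD8055, 10.57 with compound #57 and 10.18 with the combination. In MHCC97H the NDRG1 levels were 9.65, 10.36, 9.04 and 10.17 in the same order, and in Huh7 they were 9.20, 9.22, 10.89 and 10.77. Both libraries with compound #57 stood high in Hep3B and Huh7, whereas in MHCC97H the library with compound #57 alone was the lowest. Of 11 neighbouring pairs, 9 differed beyond counting error, the most of any of the 8 genes.

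ADM encodes adrenomedullin, a secreted peptide that widens blood vessels, on 11:10305073-10307397 (+). The Hep3B libraries had ADM log2 levels of 5.49 untreated (47 reads), 6.25 with AZD8055, 6.67 with compound #57 and 7.75 with the combination (264 reads). In MHCC97H the ADM levels were 9.05, 8.93, 9.12 and 9.25 in the same order, and in Huh7 they were 7.58, 7.36, 7.13 and 8.07. The combination was the highest ADM library of each line. All MHCC97H libraries lay above all others, and no neighbouring pair within MHCC97H differed beyond counting error.

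BNIP3 and BNIP3L encode related receptors that tag mitochondria for autophagy, on 10:131967684-131981967 (-) and 8:26383054-26505636 (+). For BNIP3L, the Hep3B libraries had log2 levels of 7.61 untreated, 8.09 with AZD8055, 8.03 with compound #57 and 8.34 with the combination. The BNIP3L levels were 8.18, 9.31, 8.78 and 9.81 in MHCC97H and 9.74, 9.97, 9.85 and 10.25 in Huh7, in the same order. In every line the untreated library was the lowest and the combination the highest. BNIP3 did not share this order. Its log2 levels in Hep3B were 7.97 untreated, 7.91 with AZD8055, 8.88 with compound #57 and 8.62 with the combination, and those in MHCC97H were 8.47, 8.66, 8.64 and 8.72. In Huh7 the untreated library had the highest BNIP3 level, at 9.17, followed by 9.06 with compound #57, 8.83 with the combination and 8.45 with AZD8055. Only 2 of the 11 neighbouring pairs of BNIP3 levels differed beyond counting error.

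P4HA1 encodes a catalytic subunit of collagen prolyl 4-hydroxylase, on 10:73007217-73096974 (-). In Hep3B the P4HA1 log2 levels were 8.53 untreated, 8.26 with AZD8055, 9.70 with compound #57 and 9.22 with the combination. The corresponding levels were 7.79, 7.87, 7.99 and 8.43 in MHCC97H and 10.11, 9.02, 9.93 and 9.78 in Huh7. The AZD8055 library was the lowest of its line in Hep3B and Huh7 but not in MHCC97H. All MHCC97H libraries lay below all Huh7 libraries.

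HIF1A lies on 14:61695513-61748259 (+), and its log2 levels in Hep3B were 11.003 untreated, 10.999 with AZD8055, 10.95 with compound #57 and 10.86 with the combination. In MHCC97H they were 11.67, 11.06, 11.48 and 11.06, and in Huh7 12.21, 12.70, 11.95 and 12.14, in the same order. The HIF1A levels of the lines did not overlap, with Huh7 highest and Hep3B lowest. MHCC97H with the combination lay only 0.05 above untreated Hep3B, with a counting interval that included 0. EGLN1, the main oxygen-sensing hydroxylase, on 1:231363751-231422287 (-), had log2 levels of 10.20, 10.56, 10.13 and 10.66 in Hep3B and 10.72, 10.503, 10.63 and 10.65 in MHCC97H. Its Huh7 levels were 9.77, 10.10, 10.04 and 9.96, all below those of the other lines, and 2 of its 11 neighbouring pairs differed beyond counting error. Hep3B with compound #57 lay only 0.02 above Huh7 with AZD8055, with a counting interval that included 0.

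Levels were also compared between the cell lines, where most genes of the whole table were called. Here the 4 differently treated libraries of a line stood in for replicates of that line. Between Hep3B and Huh7, which shared the exposure time, 7 of the 8 genes were called by limma against 55.1% of all genes. VEGFA was higher in Hep3B by a log2 difference of 1.30 ± 0.16 (SE, 4 libraries per line, limma adjusted p = 0.000103), and so was EGLN1 by 0.42. BNIP3L was lower in Hep3B with a difference of -1.93 ± 0.17 (limma adjusted p = 1.31e-05), as were HIF1A with -1.29, ADM with -0.99, P4HA1 with -0.78 and BNIP3 with -0.53. NDRG1 had a difference of -1.23 ± 0.61 (limma adjusted p = 0.114). The one uncalled gene, NDRG1, spanned 6.80 to 10.57 within Hep3B. Without the untreated libraries 3 of the 8 genes were called, beside 5192 of all 11548 genes. Without those with AZD8055 4 of the 8 were called, beside 5258 of all genes.

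MHCC97H against Hep3B gave 4 called genes of the 8, a share not above the 67.8% of all genes. ADM was 5.85-fold higher in MHCC97H (limma adjusted p = 2.97e-05) and BNIP3L 2.004-fold higher, whereas VEGFA with a log2 difference of -0.96 and P4HA1 with -0.90 were lower. MHCC97H against Huh7 gave 5 of the 8, a share near the 70.2% of all genes. ADM (1.56) and EGLN1 (0.66) were higher in MHCC97H on the log2 scale, and P4HA1 (-1.69), HIF1A (-0.93) and BNIP3L (-0.93) were lower. These comparisons of MHCC97H carry the difference in exposure time, and its part was not tested.

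AZD8055 was compared with untreated cells to ask how mTOR inhibition alone moved the transcripts. None of the 8 genes was called by limma, beside 2.96% of all genes (342 genes, 2.21% called higher and 0.753% lower), and 1 of the 8 had an unadjusted p under 0.05, beside 27.4% of all genes. BNIP3L came closest, with a log2-fold change of 0.62 ± 0.20 (SE, 3 lines, limma adjusted p = 0.0888) and higher values in 3 of 3 lines. Without MHCC97H the estimate was 0.36 (limma adjusted p = 0.197). Within lines it was higher by 0.48 in Hep3B, by 0.23 in Huh7 and by 1.13 in MHCC97H (counting interval 0.96 to 1.31). The estimate for VEGFA was 0.06 ± 0.18 (95% interval -0.35 to 0.47, limma adjusted p = 0.862). Its values within lines were 0.06 in Hep3B, -0.09 in MHCC97H and 0.19 in Huh7, and the counting interval excluded 0 only in Huh7.

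The other genes split by cell line under AZD8055. NDRG1 was higher by 0.82 in Hep3B and 0.71 in MHCC97H on the log2 scale, with 0.02 in Huh7 (counting interval -0.12 to 0.16). P4HA1 was at -1.10 in Huh7 (interval -1.23 to -0.96), 224th from the bottom of all genes of that pair, at -0.28 in Hep3B and at 0.08 in MHCC97H. BNIP3 likewise had its lowest value in Huh7, at -0.72, with -0.06 in Hep3B and 0.19 in MHCC97H. ADM was higher by 0.76 in Hep3B, on 47 and 92 reads, and its intervals in MHCC97H (-0.12) and Huh7 (-0.22) included 0. HIF1A had opposite signs, with -0.61 in MHCC97H, 0.49 in Huh7 and -0.0036 in Hep3B. EGLN1 had 0.36 in Hep3B, 0.33 in Huh7 and -0.21 in MHCC97H, each beyond counting error. At a size of at least 2-fold, BNIP3L was the single gene of the 8 past it in MHCC97H, upwards, where 7.14% of all genes were and 3.07% were as far down. P4HA1 was the single one in Huh7, downwards, where 2.52% of all genes were and 5.89% were as far up. In Hep3B 0 of the 8 passed 2-fold in either direction, beside 3.81% of all genes upwards and 0.823% downwards.

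Compound #57 was compared with untreated cells to ask the same of SHP2 inhibition. Across the lines limma called none of the 8 genes, and 1 gene (0.00866%) of the whole table. At an unadjusted p under 0.05 it listed 1 of the 8 and 2501 genes (21.7%) of the table. The 1 was NDRG1, with a log2-fold change of 1.62 ± 0.70 (SE, 3 lines, limma adjusted p = 0.221) and higher values in 2 of 3 lines. In Hep3B, NDRG1 had 118 reads untreated and 2374 with compound #57, a 13.6-fold difference (log2 3.77, counting interval 3.51 to 4.06), and it ranked 23rd from the top of the 11548 genes in that pair. In Huh7 it was 3.22-fold higher (log2 1.69, interval 1.58 to 1.80), 95th from the top. In MHCC97H it was lower, with a log2-fold change of -0.61 (interval -0.75 to -0.46), 296th from the bottom. The estimate rested on which lines were in the fit. Without MHCC97H it was 2.73 and NDRG1 was called (limma adjusted p = 0.0270), and without Hep3B it was 0.54 (limma adjusted p = 0.854).

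VEGFA was the member with the most even change under compound #57. It was higher by 0.37 in Hep3B, 0.29 in MHCC97H and 0.22 in Huh7 on the log2 scale, each with a counting interval above 0. The estimate was 0.29 ± 0.18 in limma (95% interval -0.12 to 0.70, adjusted p = 0.378). BNIP3L gave 0.42, 0.60 and 0.11, and the interval included 0 in Huh7. ADM, BNIP3 and P4HA1 were higher in Hep3B, by 1.18, 0.92 and 1.17. In Huh7 the same 3 genes gave -0.44, -0.11 and -0.18, and in MHCC97H 0.07, 0.17 and 0.20, all 3 of the latter with intervals that included 0. HIF1A stood below untreated, at -0.26 in Huh7, -0.19 in MHCC97H and -0.05 in Hep3B, the last with an interval that included 0. EGLN1 was higher by 0.26 in Huh7, and its intervals in Hep3B (-0.08) and MHCC97H (-0.09) included 0. At least 2-fold higher were NDRG1, ADM and P4HA1 in Hep3B, 3 of 8 beside 8.96% of all genes, NDRG1 in Huh7, 1 of 8 beside 4.43%, and 0 of 8 in MHCC97H beside 3.12%. None was at least 2-fold lower, beside 3.75%, 1.52% and 0.84% of all genes in the same order.

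**Figure D2:**
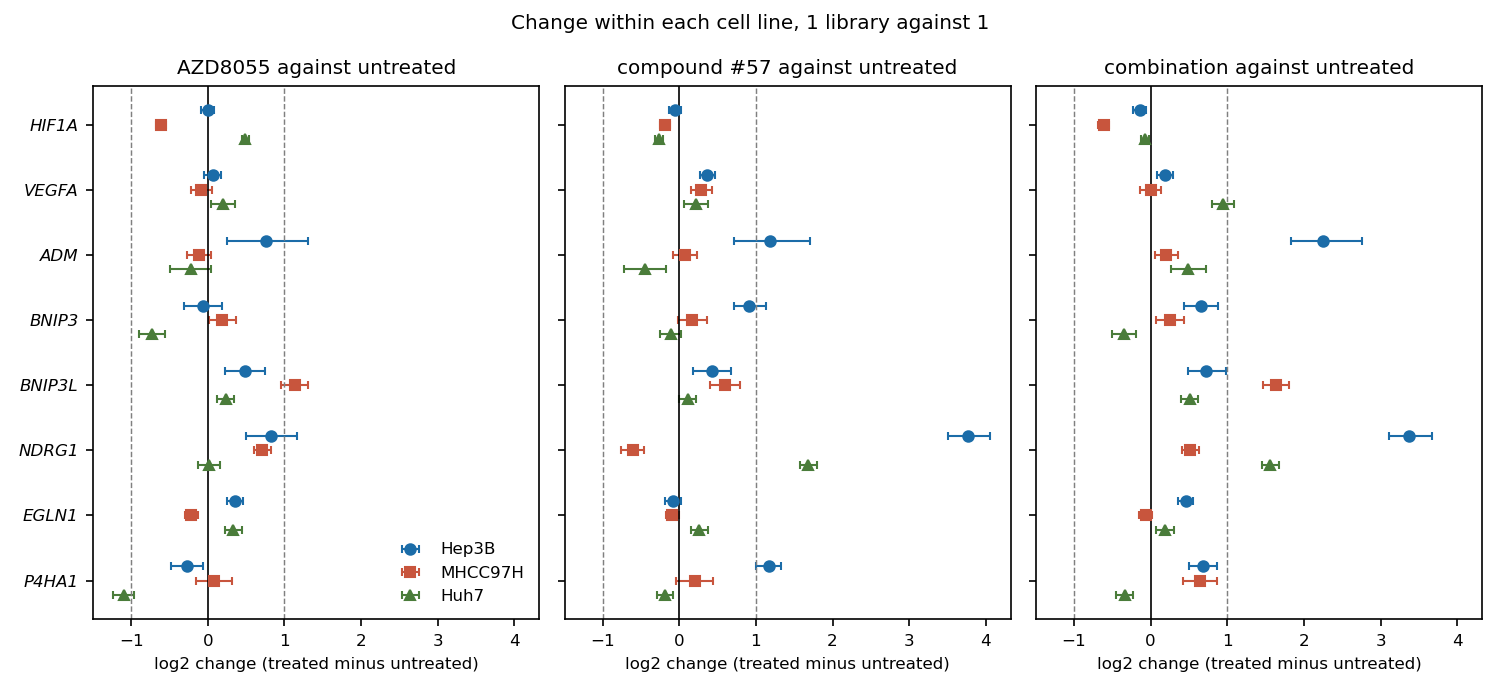
Log2-fold change within each cell line (1 treated library minus 1 untreated library) for the 8 genes, with the 95% counting interval as bars and dashed lines at 2-fold. NDRG1 with compound #57 spans 3.77 in Hep3B to -0.61 in MHCC97H, and BNIP3L lies right of 0 in every line and treatment.

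In the combination, 2 of the 8 genes were called, both higher than in untreated cells. This share was not above the 36% of all genes that were called. Called higher were 20.9% of all genes, and 15.1% were called lower. BNIP3L rose by 0.96 ± 0.20 on the log2 scale (SE, 3 lines, limma adjusted p = 0.00702), with 0.73 in Hep3B, 1.63 in MHCC97H (376 to 1109 reads) and 0.51 in Huh7. ADM rose by 0.98 ± 0.33 (limma adjusted p = 0.0441), with 2.25 in Hep3B (counting interval 1.83 to 2.76), 0.20 in MHCC97H and 0.49 in Huh7, higher in 3 of 3 lines. Neither call held in all alternatives. Without Huh7 (limma adjusted p = 0.0721 for BNIP3L and 0.123 for ADM) and with only the libraries compared (0.0542 and 0.1501) both were lost. ADM was also lost without Hep3B (estimate 0.35, limma adjusted p = 0.286), with each library centred on its median (0.0580) and with voom (0.0883). BNIP3L was still called without MHCC97H, at a lower estimate of 0.62 (limma adjusted p = 0.0175).

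NDRG1 had the largest estimate of the 8 in the combination, 1.82 ± 0.70 (limma adjusted p = 0.0682). It was 10.4-fold higher in Hep3B, 1.43-fold higher in MHCC97H and 2.96-fold higher in Huh7. Without MHCC97H it was called, at 2.47 (limma adjusted p = 0.00907), and without Hep3B the estimate was 1.04 (limma adjusted p = 0.273). VEGFA had an estimate of 0.38 ± 0.18 (95% interval -0.03 to 0.79, limma adjusted p = 0.132). Its log2-fold change was 0.95 in Huh7 (interval 0.81 to 1.09, 702 to 986 reads in libraries of unequal depth) and 0.19 in Hep3B. In MHCC97H VEGFA stood at -0.00021, with an interval of -0.14 to 0.14. The VEGFA estimate was 0.09 without Huh7 and 0.57 without MHCC97H.

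Among the remaining genes in the combination, P4HA1 and BNIP3 were higher in Hep3B (0.68 and 0.66) and MHCC97H (0.64 and 0.25) and lower in Huh7 (-0.34 for each). EGLN1 was 0.46 above untreated in Hep3B and 0.19 above it in Huh7, with -0.07 in MHCC97H. HIF1A had values below untreated in all 3 lines, at -0.14, -0.61 and -0.07, with a limma estimate of -0.28 ± 0.20 (adjusted p = 0.298), which was -0.11 without MHCC97H. At least 2-fold higher were NDRG1 and ADM in Hep3B, 2 of 8 beside 11.6% of all genes. BNIP3L was the 1 such gene in MHCC97H, beside 11.4%, and NDRG1 the 1 in Huh7, beside 12%. None of the 8 was 2-fold lower, beside 6%, 4.72% and 6.46% of all genes in Hep3B, MHCC97H and Huh7.

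**Figure D3:**
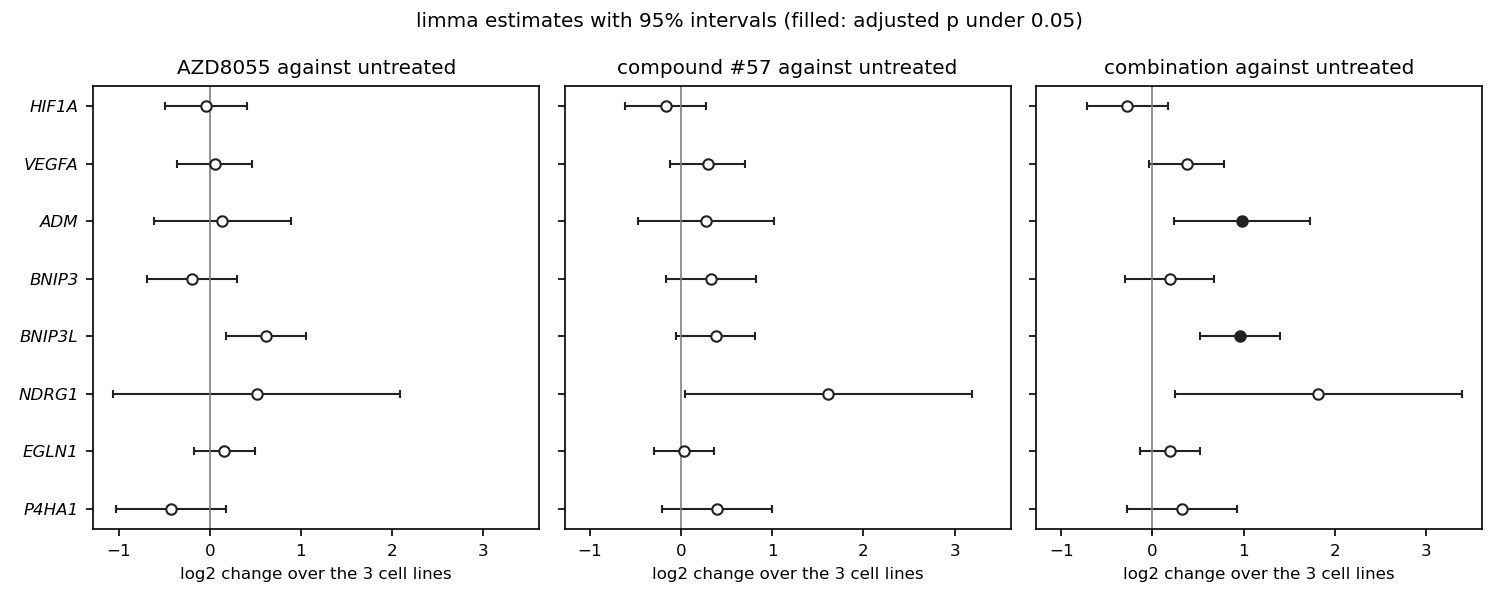
limma log2-fold change over the 3 cell lines with its 95% interval for the 8 genes in each treatment, filled where the adjusted p was under 0.05. Only ADM (0.98) and BNIP3L (0.96) in the combination are filled, and the intervals of NDRG1 are the widest.

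The combination was also set against each drug, to ask what the other drug added. These comparisons share libraries with those above. Against AZD8055, limma called 0 of the 8 genes and 0% of all genes, and at an unadjusted p under 0.05 it listed 2 of the 8 (P4HA1 and ADM) and 1673 genes (14.5%). P4HA1 was higher with the combination in 3 of 3 lines, by 0.96, 0.55 and 0.76 in Hep3B, MHCC97H and Huh7 (limma 0.76 ± 0.27, adjusted p = 0.268). ADM was also higher in 3 of 3, by 1.495, 0.32 and 0.71 (limma 0.84 ± 0.33, adjusted p = 0.298), and the estimate was 0.52 without Hep3B. NDRG1 was 5.87-fold higher in Hep3B and 2.91-fold higher in Huh7, 37th and 102nd from the top of all genes, and stood at -0.19 in MHCC97H. BNIP3 was higher by 0.72 in Hep3B and 0.38 in Huh7, and BNIP3L by 0.25, 0.50 and 0.28 in Hep3B, MHCC97H and Huh7. HIF1A had -0.56 in Huh7. VEGFA was 0.75 higher in Huh7, 0.12 in Hep3B and 0.09 in MHCC97H, the last with an interval that included 0. At least 2-fold higher were 2 of 8 in Hep3B beside 5.73% of all genes, 0 of 8 in MHCC97H beside 2.81%, and 1 of 8 in Huh7 beside 4%. None was 2-fold lower, beside 3.33%, 1.13% and 1.84%.

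Against compound #57, limma called 0 of the 8 genes beside 4.18% of all genes, with 2.62% higher and 1.57% lower. At an unadjusted p under 0.05 it listed 1 of the 8, BNIP3L, and 25.3% of all genes. BNIP3L was higher with the combination in 3 of 3 lines, by 0.31, 1.03 and 0.40 (limma 0.58 ± 0.20, adjusted p = 0.111). NDRG1 was 2.18-fold higher in MHCC97H and lower in Hep3B and Huh7, with log2-fold changes of -0.39 and -0.12. VEGFA was higher in Huh7 by 0.73 and lower in Hep3B (-0.18) and MHCC97H (-0.29), each beyond counting error. At least 2-fold higher were ADM in Hep3B, beside 2.68% of all genes, and BNIP3L and NDRG1 in MHCC97H, beside 4.97%. In Huh7 0 of 8 were, beside 5.63%, and 0 of 8 were 2-fold lower in Hep3B, MHCC97H or Huh7, beside 2.75%, 3.3% and 3.12%.

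Whether the combination equalled the sum of both drugs on the log2 scale was asked per line and with the limma interaction. The interaction called 0 of the 8 genes and 0% of all genes, and at an unadjusted p under 0.05 it listed 0 of the 8 and 178 genes (1.54%). Its estimate was 0.57 ± 0.47 for ADM (95% interval -0.48 to 1.63) and 0.03 ± 0.26 for VEGFA (-0.55 to 0.61). Per line the largest gap was NDRG1 in Hep3B, where the drugs summed to 4.59 and the combination gave 3.37. The combination was above the sum in Huh7 by 1.16 for ADM, 0.94 for P4HA1 and 0.54 for VEGFA. Over all genes, this gap had an SD of 0.50 in Hep3B and of 0.46 and 0.40 in Huh7 and MHCC97H.

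**Figure D4:**
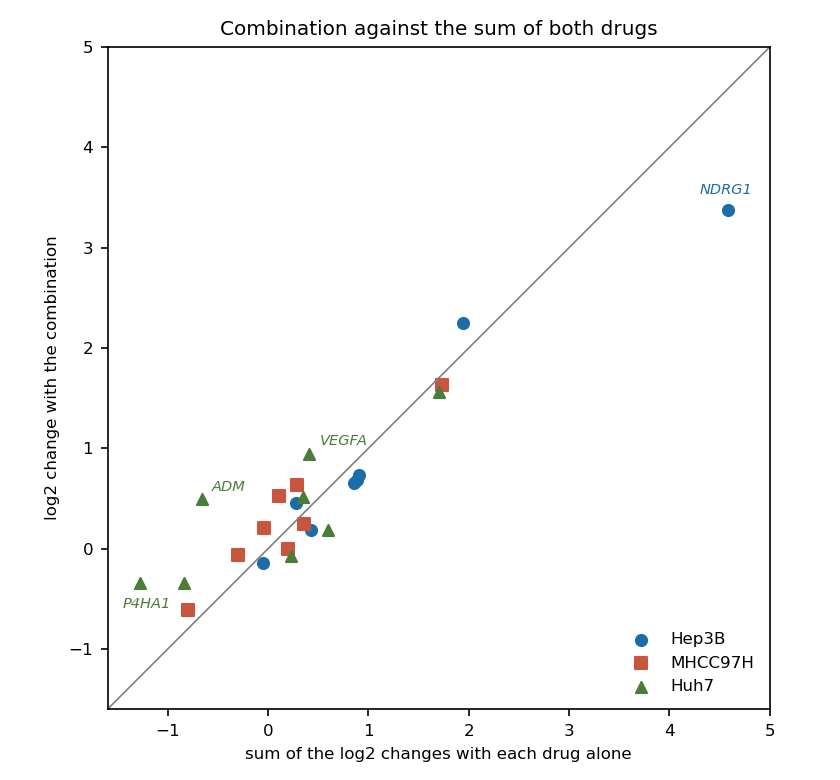
Log2-fold change with the combination (vertical) against the sum of the log2-fold changes with each drug (horizontal) for the 8 genes in 3 cell lines, with the diagonal marking equality; both axes use the same untreated library. Named points lie more than 0.5 from the diagonal, with NDRG1 in Hep3B below it and ADM, P4HA1 and VEGFA in Huh7 above it.

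The rest of the pathway was read from lists of 97 further genes, 77 with a row. Under AZD8055, 5 of 16 glycolytic HIF targets were called lower and 0 higher, beside 0.753% and 2.21% of all genes, with a median limma log2-fold change of -0.57, beside 0.10 for the 8 genes and 0.03 for all genes. The called genes were LDHA, which makes lactate, at -1.22 ± 0.24 (limma adjusted p = 0.0390), and the glycolytic enzymes GPI (-0.98), TPI1 (-0.85), PGAM1 (-0.84) and PGK1 (-0.55). Of 33 targets outside glycolysis 2 were called, both higher, beside 2.21% of all genes called higher. They were RORA (1.28), a nuclear receptor, and KDM3A (0.51), a histone demethylase. With compound #57 none of the 77 genes was called, and 19 had an unadjusted p under 0.05, a share near the 21.7% of all genes. The split was uneven, with 9 of the 16 glycolytic targets and 4 of the 33 targets outside glycolysis. The median was -0.43 for the glycolytic targets and 0.31 for the 8 genes, beside 0.05 for all genes. Without MHCC97H, 10 of the 77 genes were called, beside 778 of all 11548 genes.

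With the combination, 11 of the 77 genes were called higher and 19 lower, in all a share near the 36% of all genes called (20.9% higher and 15.1% lower). Of the 16 glycolytic targets 9 were lower and 1 higher, with a median of -0.76, beside 0.35 for the 8 genes and 0.09 for all genes. LDHA was at -1.90 ± 0.24 (limma adjusted p = 0.00211) and at least 2-fold lower in every line, and so was PGAM1 (-1.24). ALDOA (-1.36), ENO1 (-1.25), GPI (-1.23), TPI1 (-1.13) and PGK1 (-0.77) fell too, whereas ENO2, another enolase, was higher (1.39) with 2.36 in Hep3B, 2.12 in Huh7 and -0.30 in MHCC97H. The targets outside glycolysis split into 6 higher and 6 lower of 33, again the share of calls among all genes. EFNA1, an ephrin ligand, rose by 1.81, RORA by 1.10, PFKFB3 by 0.95, WSB1 by 0.85 and KDM3A by 0.78. PFKFB3 regulates glycolysis but was counted in this list, not among the 16 glycolytic targets. LOX, which crosslinks collagen, fell by 2.79 with 0.07 in MHCC97H, and STC2, a secreted glycoprotein, fell by 1.94 and TFRC, the transferrin receptor, by 1.31, the last pair at least 2-fold in all 3 lines.

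Closer relatives moved in both directions in the combination. In the VEGF family, NRP2, a co-receptor, rose by 2.40 ± 0.48 (limma adjusted p = 0.00629) and by at least 2-fold in all 3 lines, and PGF, a ligand related to VEGFA, fell by 1.21 ± 0.35 (limma adjusted p = 0.0246). VEGFC, FLT1 and KDR were not analysed here. Of 12 HIF subunits and oxygen sensors 1 was called higher and 2 lower, a share not above the 36% of all genes. EPAS1, the alpha subunit of HIF-2, fell by 1.07 ± 0.37 (limma adjusted p = 0.0478), with -1.55 in Hep3B and -1.82 in Huh7 but 0.16 in MHCC97H. Named after their values were seen, ARNT, the partner of the alpha subunits, rose by 0.68 and ELOC, a part of the ligase that removes them, fell by 0.53. Of 12 relatives and partners of the 8 genes 2 were called higher and 1 lower, also a share not above the 36%. Among them was PINK1, a kinase of mitochondrial autophagy, higher by 0.84. The others, also named after their values were seen, were BCL2L13, another mitochondrial receptor for autophagy, higher by 0.34, and P4HB, the beta subunit that pairs with P4HA1, which fell by 0.67.

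How the 8 genes varied together was described over the 12 libraries after the mean of each line was taken away. The libraries of a line share the mean that was taken away and the values are not independent, so no p is given. Pearson's r with the mean of the 8 genes was 0.94 for NDRG1, 0.84 for ADM, 0.78 for BNIP3 and 0.75 for P4HA1, each of which is part of that mean. It was 0.54 for BNIP3L, 0.51 for VEGFA, 0.11 for EGLN1 and -0.43 for HIF1A. VEGFA had r of 0.45 with ADM, 0.42 with NDRG1 and -0.04 with HIF1A. The genes of the whole table most like VEGFA were ZNF75A (0.97), CREBZF (0.94), SLC30A1 (0.93), PCBP1-AS1 (0.93) and PI4KAP1 (0.93). Those most like the mean of the 8 genes were GPRASP2 (0.97), LRRC41 (0.97), MAPK7 (0.97), CDHR5 (0.96) and TIAM2 (0.95). The genes were averaged without scaling, so those with a wide range, NDRG1 (4.09) and ADM (3.76), weigh most in this mean. Likeness to it is therefore not likeness to each of the 8 genes.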

How the data were processed

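RNA was extracted with the RNeasy kit and made into polyA+ stranded TruSeq libraries. Reads were aligned to hg38 by the authors, whose deposited table gives each gene 1 log2 value in each library. The aligner, counter and normalization are not given in the sources used here. The values were log2(reads × 10000000 / library reads + 1) plus a constant of 0.001. Taking it off gave whole reads for 100% of values within 0.02. Of the gene names, 18 had become spreadsheet dates.

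limma 3.58.1 in R 4.3.3 (lmFit, eBayes with trend) was fitted to the 12 libraries with treatment and cell line, with 6 residual degrees of freedom. Adjusted p-values were over all 11548 genes. Libraries of 1 line form the pairs, which come from the line itself. The sources do not say that libraries came from separate cultures. For treatments, p-values set a change against the spread of changes between lines, pooled over the 4 treatments. Each gene therefore has the same SE in every treatment against untreated, such as 0.70 for NDRG1. With AZD8055, NDRG1 had a limma adjusted p of 0.659, and of 0.134 with only the libraries compared. For cell lines, p-values set a difference against its spread between the 4 treatments, pooled over the lines. Each line and treatment has 1 library. In simulated data, with 200 genes changed for AZD8055 against untreated, limma called 0% at a log2 change of 0.5, 52% at 1 and 90.5% at 2, with 0, 5 and 13 unchanged genes.

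The members and lists were chosen with earlier results of these data known. Named list genes were the 20 with the largest absolute estimate, taken over the treatments against untreated together. They were drawn from genes called, or at least 2-fold in 1 direction in all lines, in a treatment. The genes most like VEGFA or the members' mean were the 5 with the highest r. Alternatives were adding 10 rather than 1 before the logarithm, keeping the 75% of genes highest on average, libraries centred on their medians, no cell line term, each line or treatment left out, only the libraries compared, and voom on the whole reads. Coordinates and lengths came from GENCODE release 44. Software comprised scipy 1.17.1, pandas 2.3.3, numpy 2.4.6 and matplotlib 3.10.9 under Python 3.11.15.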

Additional observations from a re-analysis of the deposited data

Results flagged for a closer look

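In 8 of 24 pairs of gene and treatment against untreated, a pair of cell lines had changes of opposite sign, each beyond its own counting interval. Over all genes the same held for 14.7% of 34644 such pairs. Genes with more reads have narrower intervals, and these shares were not matched on reads. With 1 library per line and treatment, these differences between lines were not tested. NDRG1 with compound #57 differed most, by 4.37 on the log2 scale between Hep3B (3.77) and MHCC97H (-0.61), lines that also differ in exposure time. With the same drug, ADM differed by 1.62 between Hep3B (1.18) and Huh7 (-0.44), and P4HA1 by 1.35 between Hep3B (1.17) and Huh7 (-0.18). With AZD8055, HIF1A differed by 1.10 between Huh7 (0.49) and MHCC97H (-0.61), BNIP3 by 0.91 between MHCC97H (0.19) and Huh7 (-0.72), and EGLN1 by 0.57 between Hep3B (0.36) and MHCC97H (-0.21). With the combination, BNIP3 differed by 0.999 (0.66 in Hep3B and -0.34 in Huh7) and P4HA1 by 1.02 (0.68 in Hep3B and -0.34 in Huh7).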

How the results depend on the processing

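Each line has 1 library per treatment, so depth gives only a counting interval. The spread of changes between lines, pooled over the treatments, sets the limma tests of treatments. The spread of line differences between treatments, pooled over the lines, sets those of lines. With 10 added, and with the 75% of genes with the highest mean, the 56 values of single members recomputed kept their call and direction. Without the cell line term (no replicate block), the combination gave 0 called members (2 with it), 0 list genes (30) and 0 of all genes (4154). For AZD8055 the same fit gave 0 list genes (7) and 0 of all genes (342). It also gave 0 genes (1) with compound #57 and 0 (483) in the combination against compound #57. With only the libraries compared, the combination gave 0 members and 1889 genes, AZD8055 2 genes, compound #57 0 and the combination against compound #57 265. Of the 8 genes in the combination, 1 was called with voom and 1 with centred libraries, beside 4210 and 4222 of all 11548 genes. voom called 26 genes for compound #57. Centring moved the share of higher calls from 74.6% of 342 to 54.1% of 473 genes for AZD8055 and from 58.0% of 4154 to 47.2% of 4222 for the combination. It turned EGLN1 to -0.035 with compound #57 and -0.0055 in the combination against AZD8055, and voom turned ADM to -0.018 with AZD8055. Within lines it turned 1 of 120 changes, ADM with compound #57 in MHCC97H, and moved changes by up to -0.11.

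With each cell line left out in turn, called members ranged from 0 to 3 in the combination and 0 to 1 with compound #57, called list genes from 0 to 1 with AZD8055, 0 to 10 with compound #57 and 0 to 38 with the combination, and called genes of the table from 0 (without Huh7) to 109 with AZD8055, 0 to 778 (without MHCC97H) with compound #57, 11 (without Huh7) to 3778 with the combination, 0 to 3 for the combination against AZD8055 and 0 to 331 against compound #57. With AZD8055, estimates ranged from -0.17 (without Hep3B) to 0.32 for ADM, -0.31 to 0.24 (without MHCC97H) for HIF1A, -0.011 (without Huh7) to 0.13 for VEGFA and -0.39 to 0.063 (without Huh7) for BNIP3. With compound #57 they ranged from -0.19 (without Hep3B) to 0.63 for ADM and -0.084 (without Huh7) to 0.092 for EGLN1. BNIP3 in the combination ranged from -0.047 (without Hep3B) to 0.45, and EGLN1 in the combination against AZD8055 from -0.024 (without MHCC97H) to 0.12. With each treatment left out, called members in Hep3B against Huh7 ranged from 3 to 8, beside 5192 to 5789 of all genes. The NDRG1 difference in MHCC97H against Huh7 ranged from -0.67 to 0.33 (without compound #57). The causes were not tested.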
